A study of Mus musculus with 9 samples.

Results

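The 10 genes described here, which take fatty acids into the cell, carry them and activate them, were read in mouse liver with and without Alb-cre. They were Cd36 and Slc27a2 for uptake, Fabp1, Fabp2, Fabp4 and Fabp5 for binding, Acsl1, Acsl3 and Acsl5 for activation, and Dbi for acyl-CoA binding. They were chosen by gene symbol, and each of the 10 matched 1 of the 18954 rows of the count table. The first group was 5 livers labelled GSDMD-NTki/wt & Alb-creki/wt, from mice with 1 knock-in allele for GSDMD-NT and 1 Alb-cre allele. The second group was 4 control livers labelled GSDMD-NTki/wt, which carried the same knock-in allele and no Cre. GSDMD-NT is the N-terminal, pore-forming part of gasdermin D, and Alb-cre places Cre recombinase under the albumin promoter, which is active in hepatocytes. The series names doxycycline as the inducer of cell death, and every liver was labelled day 42. The labels of single livers name no agent. No analysed liver had Alb-cre without the knock-in allele, so effects of Cre itself and of GSDMD-NT that Cre releases cannot be told apart. The labels give no sex, age or litter, and nothing states that the livers came from separate animals, so p-values measure the spread between these livers, which may be partly technical.

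Long-chain fatty acids reach hepatocytes bound to plasma albumin and cross the membrane with help from CD36 and the SLC27 (FATP) proteins. Inside the cell, fatty acid binding proteins (FABPs) keep them soluble, and long-chain acyl-CoA synthetases (ACSLs) join them to coenzyme A, which traps them and admits them to oxidation or to lipid synthesis. Acyl-CoA binding protein, the product of Dbi, then carries the acyl-CoA. In liver, several of these genes are known targets of PPARalpha, a nuclear receptor for fatty acids that binds DNA together with RXR.

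Fabp1, Fabp2 and Acsl5 fell in the GSDMD-NT Alb-cre livers, and none of the 10 genes rose. Fabp1, the main fatty acid binding protein of hepatocytes, stood at 0.505 times its control level, Fabp2 at 0.710 times and Acsl5 at 0.724 times. The other 7 genes did not pass the test. Of all 14004 tested genes, 9.07% fell and 9.25% rose at an adjusted p under 0.05, 18.3% in all, against 3 of these 10 that fell and 0 that rose. At an unadjusted p under 0.05 the counts were 4 lower and 0 higher of 10, against 17.3% lower and 17.6% higher of all tested genes. DESeq2 and limma-voom also called 3 lower and 0 higher. The number called lower was 0 with library totals alone, with a replicate block on either numbering, and without GSDMD-NT Alb-cre 1, control 2 or control 4. It was 1 with a length-dependent offset and 1 without GSDMD-NT Alb-cre 5. The groups did not overlap for 3 of the 10 genes, all lower in GSDMD-NT Alb-cre livers, where 9.22% of all tested genes did not overlap and were lower, 9.23% were higher, and 18.5% did not overlap in either direction. The median log2 fold change was -0.0017 over the 10 genes and 0.013 over all tested genes. The libraries held 13361093 to 16823506 counts each. Whether reads of the knock-in count toward Gsdmd is not stated. Gsdmd measured 41.0 ± 7.16 CPM in GSDMD-NT Alb-cre livers (SD, n = 5) and 38.8 ± 7.17 CPM in controls (SD, n = 4), with an adjusted p = 0.765 from edgeR, and is no check of the labels. Levels are CPM, each gene's counts scaled to 1 common library total, after scaling by TMM, which evens out differences in library make-up. Fold changes are log2, GSDMD-NT Alb-cre minus control, with their standard error (SE). They come from edgeR's quasi-likelihood fit, and p was adjusted over all tested genes.

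The promoters of the genes that fell are shown because Fabp1 is a textbook PPARalpha target and the RNAs of Ppara and Rxra were themselves called. Both, described later, were higher in GSDMD-NT Alb-cre livers, whereas Fabp1 was lower. A part of these regulators in the level of Fabp1 was not tested. The windows come from RefSeq on build GRCm38.p6 and hold the 250 bases before the start of the gene, 5′ to 3′ on the strand of the gene. They lie at chr6:71199629-71199878 (plus strand) for Fabp1, chr3:122894822-122895071 (plus strand) for Fabp2 and chr19:55253119-55253368 (plus strand) for Acsl5. Capitals mark matches, on either strand, to the motifs named after them.
Fabp1: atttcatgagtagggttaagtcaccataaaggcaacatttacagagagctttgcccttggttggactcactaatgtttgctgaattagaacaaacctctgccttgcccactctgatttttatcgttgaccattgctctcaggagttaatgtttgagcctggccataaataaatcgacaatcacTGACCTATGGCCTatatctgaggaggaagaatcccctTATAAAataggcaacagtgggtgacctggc
Fabp2: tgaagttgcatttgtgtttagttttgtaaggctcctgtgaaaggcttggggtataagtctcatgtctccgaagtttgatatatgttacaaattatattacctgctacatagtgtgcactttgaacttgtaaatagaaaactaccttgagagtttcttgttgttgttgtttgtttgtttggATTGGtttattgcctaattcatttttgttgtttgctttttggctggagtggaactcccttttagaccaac
Acsl5: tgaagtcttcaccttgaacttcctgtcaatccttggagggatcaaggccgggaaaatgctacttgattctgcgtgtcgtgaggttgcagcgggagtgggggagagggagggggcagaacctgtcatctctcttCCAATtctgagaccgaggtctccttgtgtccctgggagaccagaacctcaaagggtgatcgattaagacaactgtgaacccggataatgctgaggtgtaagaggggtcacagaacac
In Fabp1 the first capitals, 67 to 55 bases before the start, match, on the opposite strand, AGGNCA repeated after a spacer of 1 base. That is a loosened form of AGGTCA repeated after 1 base, to which PPARalpha with RXR, and also HNF4alpha, can bind. The form was loosened after the windows had been read. It occurs in 0.338% of all 32851 windows and, among the 10 windows held for 8 of the genes, in that of Fabp1. The strict repeat occurs in 0.0335% of windows and in none of the 10. The later capitals in Fabp1, TATAAA, occur in 12.4% of all windows. The capitals in Fabp2, on the opposite strand, and in Acsl5 are CCAAT, found in 33.8%. No motif overlapped another in these windows. A match is a string of letters, and binding was not measured.

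Among the binding proteins, Fabp1 showed the largest change. Its levels were 1842, 927, 2659, 2086 and 1332 CPM across GSDMD-NT Alb-cre livers 1 to 5, against 2753, 3856, 2971 and 4421 CPM in controls 1 to 4. Every GSDMD-NT Alb-cre liver was below every control, with GSDMD-NT Alb-cre 3 closest to the controls and GSDMD-NT Alb-cre 2 farthest. Means were 1769 ± 670 CPM (SD, n = 5) in GSDMD-NT Alb-cre livers and 3500 ± 777 CPM (SD, n = 4) in controls (log2 fold change -0.98 ± 0.28 SE, adjusted p = 0.0303). Raw counts ran from 13925 to 46094 in GSDMD-NT Alb-cre livers and from 40544 to 73967 in the controls, so counting error was small beside the spread between livers. The Fabp1 call was lost without GSDMD-NT Alb-cre 1 or 5 or control 2 or 4 (adjusted p = 0.0615 to 0.0937), while its log2 fold change stayed between -1.17 and -0.83 in the 9 fits that each left out 1 liver.

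Fabp2 encodes the intestinal form of the family, which liver also expresses at a low level. Its levels were 32.0, 24.9, 33.0, 33.4 and 36.5 CPM across GSDMD-NT Alb-cre livers 1 to 5, against 37.8, 49.3, 37.6 and 55.5 CPM in controls 1 to 4. The groups did not overlap, but GSDMD-NT Alb-cre 5 lay just below controls 1 and 3. The log2 fold change was -0.49 ± 0.15 SE (adjusted p = 0.0397). The call was lost without GSDMD-NT Alb-cre 1, 2, 3 or 4 or control 2 or 4 (adjusted p = 0.057 to 0.118).

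Fabp4 and Fabp5, the FABPs best known from adipocytes, macrophages and endothelium and from epidermis, did not pass the test. Fabp5 measured 58.9, 136, 28.5, 21.4 and 20.7 CPM across GSDMD-NT Alb-cre livers 1 to 5, against 23.7, 38.0, 22.1 and 39.3 CPM in controls 1 to 4. GSDMD-NT Alb-cre 1 and 2 lay above every control, and the other GSDMD-NT Alb-cre livers lay within or just below the control range. The log2 fold change was 0.79 ± 0.51 SE (95% interval -0.32 to 1.89, adjusted p = 0.294), and without GSDMD-NT Alb-cre 2 it was 0.069 (adjusted p = 0.9). Reads of Fabp5 may be shared with near-identical copies. One of them, Fabp5l2, had 9, 40, 3, 6 and 5 counts in GSDMD-NT Alb-cre livers 1 to 5 and 4 to 12 counts in controls. Fabp4 was the lowest of the 10 genes, at 4.91, 6.79, 4.33, 7.96 and 3.26 CPM across GSDMD-NT Alb-cre livers 1 to 5 and 2.13, 4.91, 4.18 and 2.87 CPM in controls 1 to 4. The groups overlapped (log2 fold change 0.63 ± 0.31 SE, 95% interval -0.03 to 1.30, adjusted p = 0.165).

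**Figure D1:**
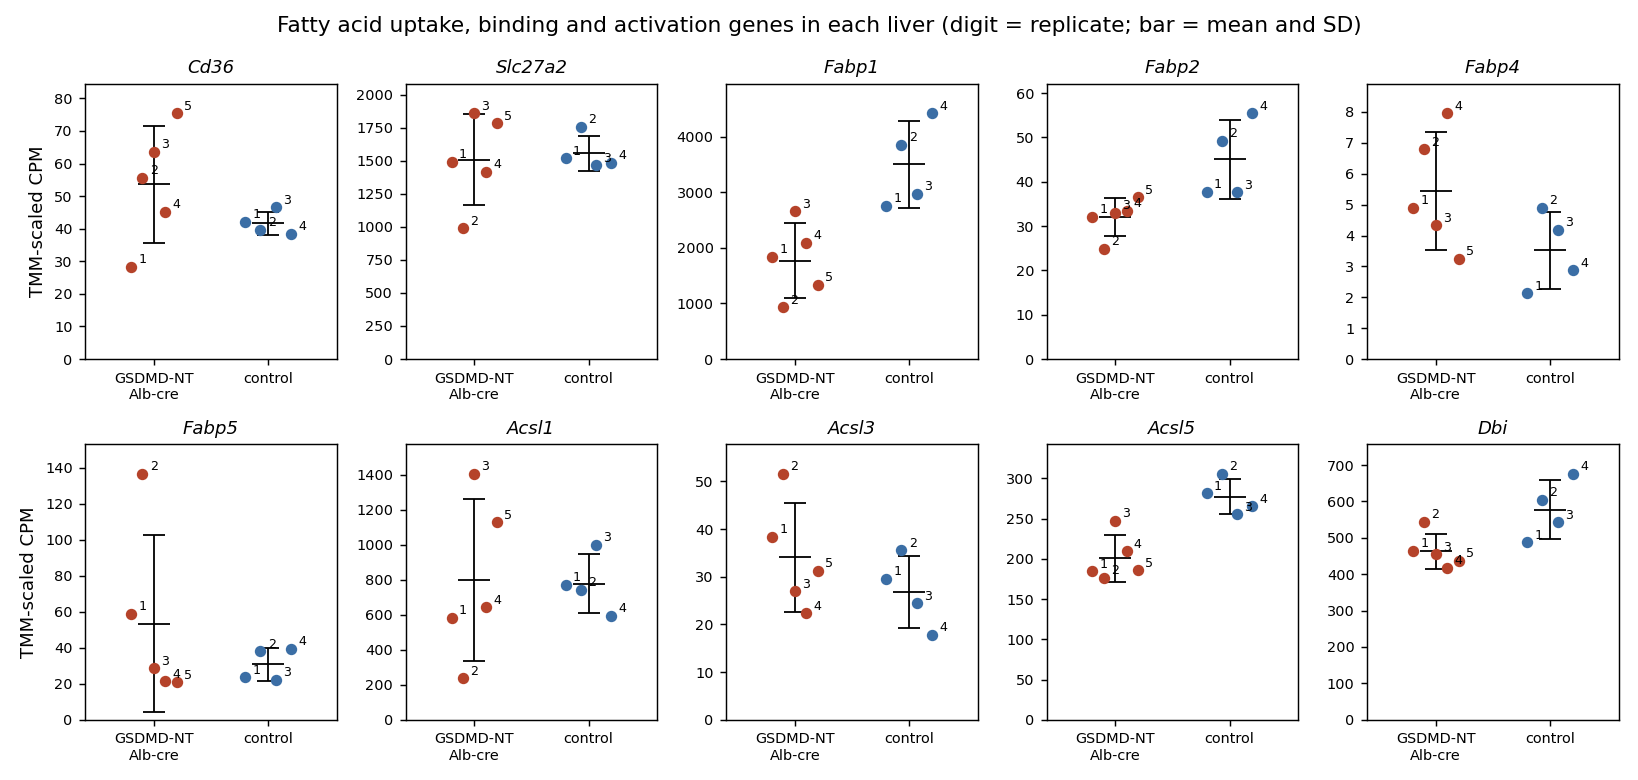
TMM-scaled CPM of each gene in each liver, GSDMD-NT Alb-cre (red, n = 5) left and control (blue, n = 4) right, with the replicate number beside each point and black bars for mean and SD; each panel has its own axis from 0. Fabp1, Fabp2 and Acsl5 separate the groups, while Acsl1 and Fabp5 spread widely among the GSDMD-NT Alb-cre livers.

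Neither uptake gene passed the test. Cd36 encodes a scavenger receptor that binds fatty acids and lipoproteins. It measured 28.2, 55.7, 63.6, 45.3 and 75.5 CPM across GSDMD-NT Alb-cre livers 1 to 5 and 42.0, 39.6, 46.5 and 38.4 CPM in controls 1 to 4. The controls were tight, and the GSDMD-NT Alb-cre livers reached both below and above them. The log2 fold change was 0.36 ± 0.22 SE (95% interval -0.12 to 0.85, adjusted p = 0.27), with adjusted p = 0.0519 to 0.522 when 1 liver was left out. Slc27a2 encodes FATP2, a transporter that is also a very-long-chain acyl-CoA synthetase. It measured 1494, 988, 1860, 1418 and 1784 CPM across GSDMD-NT Alb-cre livers 1 to 5 and 1518, 1756, 1467 and 1483 CPM in controls 1 to 4. GSDMD-NT Alb-cre 2 was lowest and GSDMD-NT Alb-cre 3 highest, on either side of the controls (log2 fold change -0.044 ± 0.19 SE, 95% interval -0.45 to 0.36, adjusted p = 0.888). The sign of this small difference turned without GSDMD-NT Alb-cre 2 (0.073) or control 2 (0.020).

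Of the activating enzymes, Acsl5, which resides at mitochondria and the endoplasmic reticulum, fell. It measured 184, 176, 247, 209 and 186 CPM across GSDMD-NT Alb-cre livers 1 to 5, against 282, 306, 256 and 266 CPM in controls 1 to 4. The groups did not overlap, with GSDMD-NT Alb-cre 3 again nearest to the controls. The log2 fold change was -0.47 ± 0.13 SE (adjusted p = 0.029), and the call was lost without GSDMD-NT Alb-cre 1 or 5 or control 1, 2 or 4 (adjusted p = 0.0541 to 0.0906).

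Acsl1, the main ACSL of hepatocytes, had nearly the same mean in both groups but not the same spread. It measured 582, 236, 1405, 644 and 1127 CPM across GSDMD-NT Alb-cre livers 1 to 5 and 770, 743, 1000 and 593 CPM in controls 1 to 4. Highest over lowest was 5.95-fold among GSDMD-NT Alb-cre livers and 1.69-fold among controls, a difference in spread that was not tested. The log2 fold change was 0.041 ± 0.39 SE (95% interval -0.81 to 0.89, adjusted p = 0.953). Its sign turned without GSDMD-NT Alb-cre 3 (-0.25), GSDMD-NT Alb-cre 5 (-0.12) or control 4 (-0.069). Acsl3, an ACSL of the endoplasmic reticulum and lipid droplets, measured 38.3, 51.6, 26.9, 22.4 and 31.2 CPM across GSDMD-NT Alb-cre livers 1 to 5 and 29.6, 35.6, 24.4 and 17.9 CPM in controls 1 to 4. The groups overlapped (log2 fold change 0.34 ± 0.25 SE, 95% interval -0.19 to 0.88, adjusted p = 0.344).

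Dbi measured 465, 543, 455, 418 and 436 CPM across GSDMD-NT Alb-cre livers 1 to 5 and 488, 605, 543 and 676 CPM in controls 1 to 4. GSDMD-NT Alb-cre 2 lay above control 1 and level with control 3, and the other GSDMD-NT Alb-cre livers were below every control. The log2 fold change was -0.32 ± 0.14 SE (unadjusted p = 0.0381, adjusted p = 0.121), so Dbi did not pass after adjustment.

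**Figure D2:**
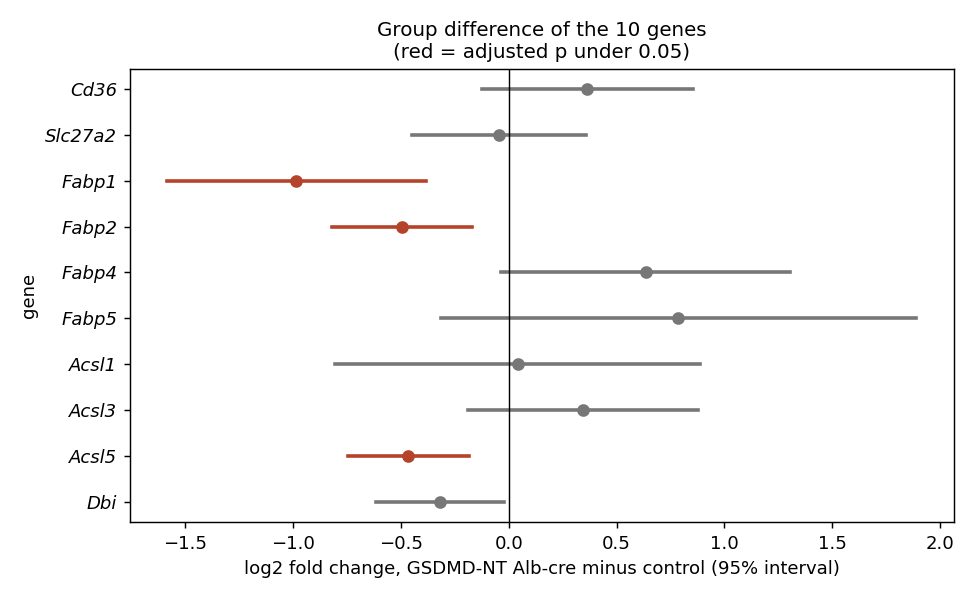
Log2 fold change of each gene, GSDMD-NT Alb-cre minus control, on the x axis, with points for estimates and lines for 95% intervals, ordered by role from uptake to acyl-CoA binding. Red marks an adjusted p under 0.05 (Fabp1, Fabp2 and Acsl5, all below 0), and the intervals of Acsl1 and Fabp5 are the widest.

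The GSDMD-NT Alb-cre livers did not move as a block. GSDMD-NT Alb-cre 2 had the lowest Fabp1, Fabp2, Slc27a2, Acsl1 and Acsl5 and the highest Fabp5, Acsl3 and Dbi of its group. Set against the control mean on the log2 scale, it stood at -1.89 for Fabp1 and -1.69 for Acsl1 but at 2.19 for Fabp5 and 0.98 for Acsl3. In GSDMD-NT Alb-cre 3 the same genes stood at -0.37, 0.88, -0.062 and 0.049. These livers were also the extremes of the group for Saa1, an acute phase gene of hepatocytes, with 19310 CPM for GSDMD-NT Alb-cre 2 and 88.7 CPM for GSDMD-NT Alb-cre 3. The other GSDMD-NT Alb-cre livers had 1399 to 5195 CPM of Saa1, and controls had 20.6 to 74.7 CPM. Saa1 was on none of the gene lists read here. GSDMD-NT Alb-cre 5, next to highest in Saa1 (5195 CPM), was next to lowest in Fabp1 (1332 CPM). That liver was also next to highest in Acsl1 (1127 CPM) and lowest in Fabp5 (20.7 CPM) of its group. GSDMD-NT Alb-cre 2 also had the largest share of counts in its 20 most abundant genes (30.9%, against 21.5 to 26.4% in the other livers) and the lowest TMM factor (0.894). The part of these in the levels was not tested. Without GSDMD-NT Alb-cre 2, Fabp1 (-0.83, adjusted p = 0.0304) and Acsl5 (-0.42, adjusted p = 0.0427) were still called and Fabp2 was not (-0.42, adjusted p = 0.0651).

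**Figure D3:**
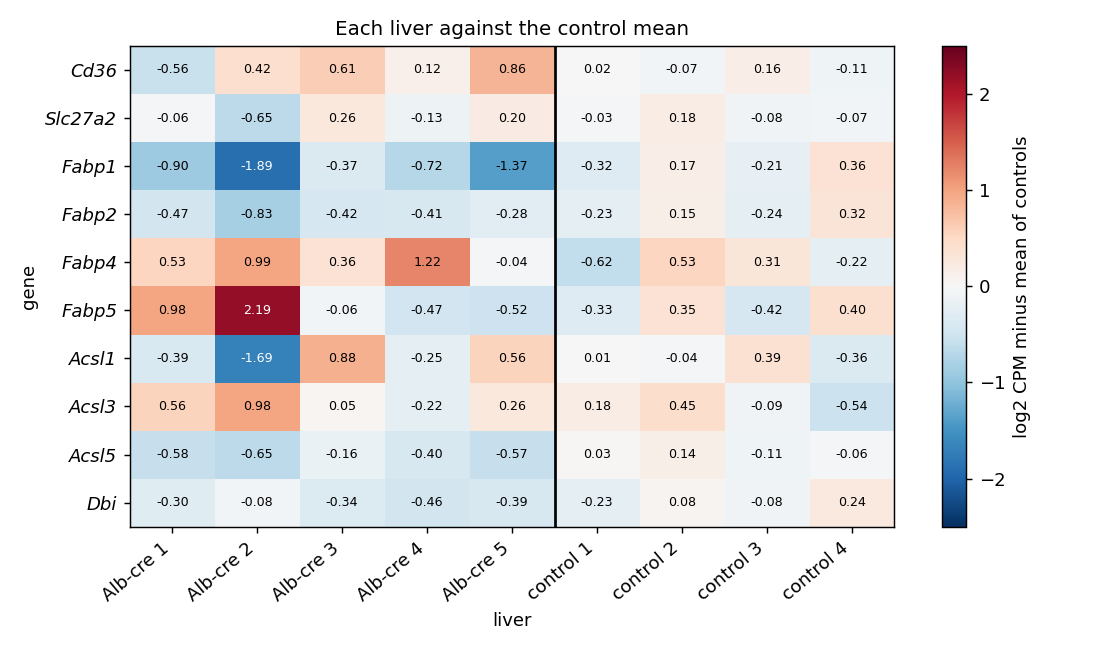
Log2 CPM of each gene (rows) in each liver (columns, GSDMD-NT Alb-cre left of the line, control right), minus the mean of the controls, with red above and blue below it and the value printed in each cell. GSDMD-NT Alb-cre 2 shows the deepest blue for Fabp1 (-1.89) and Acsl1 (-1.69) and the deepest red for Fabp5 (2.19).

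Levels of different genes were compared per transcript length, as TPM, which are reads per base of transcript scaled to 1 total in every liver, computed from the counts with lengths from GENCODE M21. In GSDMD-NT Alb-cre livers the order was Fabp1 (6328 ± 2785 TPM), Dbi (1560 ± 64.3), Slc27a2 (1010 ± 284), Acsl1 (406 ± 246), Fabp5 (97.2 ± 77.2), Acsl5 (91.9 ± 20.1), Fabp2 (64.5 ± 13.0), Cd36 (30.3 ± 10.3), Acsl3 (16.2 ± 3.78) and Fabp4 (11.7 ± 4.40 TPM, SD, n = 5). Fabp1 and Dbi did not overlap with their next neighbours there, and from Slc27a2 down each gene's range overlapped with that of the next. In controls the order was Fabp1 (11488 ± 2036 TPM), Dbi (1849 ± 188), Slc27a2 (973 ± 62.2), Acsl1 (367 ± 95.7), Acsl5 (119 ± 7.61), Fabp2 (84.7 ± 12.7), Fabp5 (56.4 ± 14.0), Cd36 (22.5 ± 3.05), Acsl3 (12.4 ± 3.35) and Fabp4 (7.15 ± 2.46 TPM, SD, n = 4). Only Acsl3 and Fabp4 were neighbours in this order whose control ranges overlapped. The higher place of Fabp5 among GSDMD-NT Alb-cre livers rests on GSDMD-NT Alb-cre 1 and 2, the livers in which its TPM exceeded that of Acsl5. On the TPM scale the groups of Fabp1 touched, since GSDMD-NT Alb-cre 3 (9825 TPM) lay above control 1 (9450 TPM). Those of Acsl5 overlapped as well, at 67.3 to 119 TPM in GSDMD-NT Alb-cre livers and 110 to 126 TPM in controls. Fabp2 stayed apart, at 41.8 to 73.3 TPM in GSDMD-NT Alb-cre livers and 74.3 to 101 TPM in controls.

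Within each family the make-up varied among the GSDMD-NT Alb-cre livers. Fabp1 made up 97.1, 90.7, 98.6, 98.3 and 97.5% of the summed TPM of the 4 FABP genes in GSDMD-NT Alb-cre livers 1 to 5, against 98.7 to 98.8% in the controls. All GSDMD-NT Alb-cre livers were below the lowest control, GSDMD-NT Alb-cre 3 by the smallest margin. Fabp5 reached 7.48% of that sum in GSDMD-NT Alb-cre 2, against 0.412 to 0.545% in controls. Acsl1 made up 73.8, 52.6, 84.7, 75.0 and 84.8% of the 3 ACSL genes in GSDMD-NT Alb-cre livers 1 to 5, against 72.8, 70.2, 79.4 and 69.4% in controls 1 to 4. Only in GSDMD-NT Alb-cre 2 was the Acsl1 share below the control range. There, Acsl5 held 36.0% and Acsl3 11.3%, against at most 28.6% and 3.31% in a control. Such shares tie the genes to each other, so a low share of one is a high share of another.

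**Figure D4:**
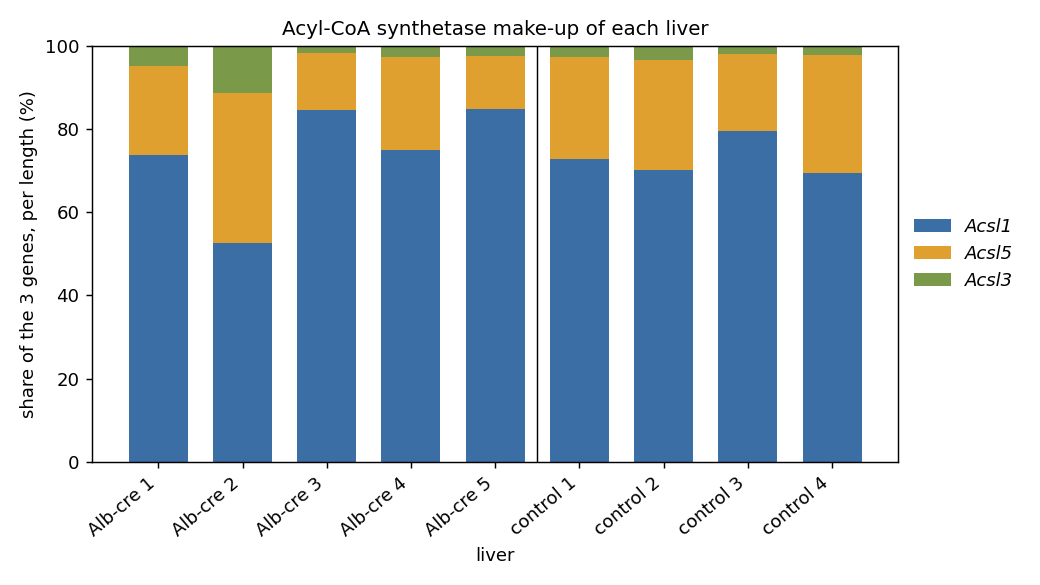
Share (y axis, %) of Acsl1, Acsl5 and Acsl3 in their summed TPM for each liver, GSDMD-NT Alb-cre livers left of the line and controls right. Acsl1 holds 52.6 to 84.8% in GSDMD-NT Alb-cre livers, with GSDMD-NT Alb-cre 2 lowest, and 69.4 to 79.4% in controls.

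Transcript length and hepatocyte marker levels were set beside these results. Fabp1 (553 bases) and Dbi (569 bases) have the shortest transcripts of the 10 genes, and Fabp2 has 965 bases. Among the 1446 tested genes under 1000 bases, 16.0% fell and 3.04% rose, whereas among the 6307 of 3000 bases or more 5.57% fell and 13.7% rose. With a length-dependent offset for each liver, the log2 fold change of Fabp1 was -0.71 (adjusted p = 0.0969), that of Fabp2 was -0.26 (adjusted p = 0.215) and that of Dbi was -0.056 (adjusted p = 0.776). Acsl5, at 4243 bases, kept its call (-0.59, adjusted p = 0.0126). The 7 hepatocyte markers with a row in the table, led by Alb, summed to 53386 to 68390 CPM in GSDMD-NT Alb-cre livers and 69279 to 86525 CPM in controls. Their part in the lower Fabp1 was not tested, and in whole liver fewer cells of a type and less RNA per cell cannot be told apart. Of these 7 markers 2 fell (Ttr and Asgr1) and 1 rose (Tat), beside 9.07% and 9.25% of all tested genes. Fold changes were positive for 3 of them and negative for 4. Alb, which made up most of each sum, was not called (log2 fold change -0.33 ± 0.20 SE, adjusted p = 0.271).

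Markers of other cells that use these genes were read as well. The 8 markers of recruited or lipid-associated macrophages, cells that express Fabp4, Fabp5 and Cd36, summed to 28.2 to 77.5 CPM in GSDMD-NT Alb-cre livers and 56.8 to 93.7 CPM in controls. Of 7 tested, 2 fell and 0 rose (at an unadjusted p under 0.05, 6 lower and 0 higher, against 17.3% and 17.6% of all tested genes). The highest of the GSDMD-NT Alb-cre sums was in GSDMD-NT Alb-cre 2, which had the highest Fabp5. Most of that sum was Spp1 (52.5 CPM) and Cd9 (19.0 CPM). These genes, Trem2 (2.06 CPM) and Itgax (2.26 CPM) were highest of the group in that liver, while Gpnmb, Mmp12, Ccr2 and Ly6c2 were not. Kupffer cell markers summed to 171 to 218 CPM in GSDMD-NT Alb-cre livers and 123 to 229 CPM in controls. Of 8 tested, 7 had a positive fold change, against 7171 of all 14004 tested genes. Of these 8, 1 rose and 0 fell (2 higher and 0 lower at an unadjusted p under 0.05), where 9.25% of all tested genes rose. The 1 that rose was Timd4 (log2 fold change 0.84 ± 0.25 SE, adjusted p = 0.0351). Sinusoidal endothelial markers ran from 67.8 to 192 CPM in GSDMD-NT Alb-cre livers, lowest in GSDMD-NT Alb-cre 2, and from 90.9 to 151 CPM in controls. All 7 had a positive fold change (median log2 fold change 0.69), and 1 rose and 0 fell, where 9.25% of all tested genes rose. At an unadjusted p under 0.05, 2 were higher and 0 lower, against 17.6% and 17.3% of all tested genes. The 1 that rose was Lyve1 (log2 fold change 1.65 ± 0.44 SE, adjusted p = 0.0262). Transcripts of these 7 ran from 1242 bases (Clec4g) to 8228 bases (Stab2). All tested genes of 3000 bases or more had a median log2 fold change of 0.12. Other vascular endothelial markers ran from 13.0 to 35.2 CPM in GSDMD-NT Alb-cre livers and from 15.5 to 23.2 CPM in controls. The highest sum was in GSDMD-NT Alb-cre 4, which also had the most Fabp4 (7.96 CPM). The lowest was in GSDMD-NT Alb-cre 2, whose Fabp4 (6.79 CPM) was next to highest. Of 5 tested, edgeR called 0 (1 higher and 0 lower at an unadjusted p under 0.05). The adipocyte marker Cfd had 0 to 2 counts per GSDMD-NT Alb-cre liver and 1 to 13 per control. The other adipocyte marker in the table, Adrb3, fell (log2 fold change -1.08 ± 0.28 SE, adjusted p = 0.0227), and the other 4 of 6 had no row. Stellate cell markers summed to 103 to 212 CPM in GSDMD-NT Alb-cre livers and 145 to 255 CPM in controls, and edgeR called 0 of 6 (0 at an unadjusted p under 0.05 too). Keratinocyte markers, 2 of 4 with a row, summed to 1.26 to 1.85 CPM in GSDMD-NT Alb-cre livers and 1.47 to 2.71 CPM in controls. The 1 skeletal muscle marker with a row was at 0 in every GSDMD-NT Alb-cre liver and reached at most 0.12 CPM in a control. None of the 7 enterocyte markers had a row. The part of these cells in the levels of the 10 genes was not tested.

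The related genes of the pathway were read from 6 lists with 58 symbols, of which 47 had a row and 44 were tested. Across them 3 rose and 3 fell, near the 9.25% and 9.07% of all tested genes. At an unadjusted p under 0.05, 7 were higher and 8 lower of 44, near the 17.6% and 17.3% of all tested genes. Their median log2 fold change was 0.069, against 0.013 over all tested genes.

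None of 6 tested fatty acid transporters passed the test under edgeR (1 was higher and 0 lower at an unadjusted p under 0.05). The smallest adjusted p among them was that of Slc27a4, which encodes FATP4 (50.7 ± 2.30 CPM in GSDMD-NT Alb-cre livers and 40.8 ± 8.73 CPM in controls, log2 fold change 0.31 ± 0.14 SE, adjusted p = 0.143). Fabp7 was the 1 other FABP gene with enough counts to be tested, at 2.14 ± 0.594 CPM in GSDMD-NT Alb-cre livers and 1.36 ± 0.496 CPM in controls (log2 fold change 0.65 ± 0.32 SE, adjusted p = 0.173). Fabp3, the heart form, had 0 to 4 counts per liver.

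Of 10 other acyl-CoA synthetase genes tested, 2 fell and 0 rose, beside 9.07% and 9.25% of all tested genes. At an unadjusted p under 0.05, 1 was higher and 2 lower, against 17.6% and 17.3% of all tested genes. Acss2, which makes acetyl-CoA from acetate, measured 148, 175, 156, 150 and 134 CPM across GSDMD-NT Alb-cre livers 1 to 5, against 215, 262, 189 and 225 CPM in controls 1 to 4. The groups did not overlap (log2 fold change -0.55 ± 0.13 SE, adjusted p = 0.0147), and the call was lost without control 2 (adjusted p = 0.0542). Acsm5, a medium-chain synthetase, also fell (-0.61 ± 0.18 SE, adjusted p = 0.0364). It was again lowest in GSDMD-NT Alb-cre 2 at 70.2 CPM and highest of that group in GSDMD-NT Alb-cre 3 at 145 CPM, just below the lowest control (147 CPM). The Acsm5 call was lost without GSDMD-NT Alb-cre 1, 4 or 5 or any 1 control (adjusted p = 0.058 to 0.0835).

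Among 5 other acyl-CoA binding proteins, 1 rose and 0 fell, beside 9.25% and 9.07% of all tested genes. At an unadjusted p under 0.05, 1 was higher and 2 lower, against 17.6% and 17.3% of all tested genes. The 1 that rose was Acbd3, a Golgi protein. It measured 26.1, 22.3, 23.9, 22.2 and 25.4 CPM across GSDMD-NT Alb-cre livers 1 to 5, against 19.5, 14.2, 17.9 and 12.9 CPM in controls 1 to 4. The groups did not overlap (log2 fold change 0.57 ± 0.14 SE, adjusted p = 0.0172), and the call was lost without control 2 (adjusted p = 0.0593).

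Thioesterases undo activation by splitting acyl-CoA. Of 12 tested, 1 fell and 0 rose, beside 9.07% and 9.25% of all tested genes. At an unadjusted p under 0.05, 1 was higher and 3 lower, against 17.6% and 17.3% of all tested genes. Acot13 measured 25.4, 18.1, 27.6, 24.3 and 21.3 CPM across GSDMD-NT Alb-cre livers 1 to 5, against 37.7, 44.3, 34.0 and 49.1 CPM in controls 1 to 4. All GSDMD-NT Alb-cre livers were below all controls (log2 fold change -0.82 ± 0.15 SE, adjusted p = 0.00603), and the call held in each fit that left out 1 liver. Its transcript is also short, at 721 bases, and the call held with the length-dependent offset (-0.57, adjusted p = 0.0214). The Acot13 call was lost with a replicate block on the description number (adjusted p = 0.0836) and without controls 2 and 4 (adjusted p = 0.0974). Acot1 and Acot4, chosen after their values were seen, followed Acsl1 at its ends within the GSDMD-NT Alb-cre group, as Fabp1, Slc27a2 and Acsl5 also did. The same livers were lowest and highest of the group for Acot2, Acot11, Acot12 and Acot13, and for Acsm3 and Scp2, so these ends were not particular to Acot1 and Acot4. In GSDMD-NT Alb-cre 2 Acot1 was lowest at 2.20 CPM, in GSDMD-NT Alb-cre 3 highest at 41.2 CPM, and controls had 10.5 to 27.7 CPM (adjusted p = 0.929). For Acot4 these livers had 9.45 CPM (GSDMD-NT Alb-cre 2) and 48.9 CPM (GSDMD-NT Alb-cre 3), with 39.1 to 79.5 CPM in controls (adjusted p = 0.0893).

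Of 10 transcription regulators, 2 rose and 0 fell, beside 9.25% and 9.07% of all tested genes. At an unadjusted p under 0.05, 3 were higher and 1 lower, against 17.6% and 17.3% of all tested genes. Those not called, named after their values were seen, were Hnf4a, higher (log2 fold change 0.39 ± 0.16 SE, adjusted p = 0.0985), and Ppargc1a, lower (-0.63 ± 0.23 SE, adjusted p = 0.0728). Ppara measured 106, 64.2, 142, 109 and 152 CPM across GSDMD-NT Alb-cre livers 1 to 5, against 50.3 to 81.0 CPM in controls. GSDMD-NT Alb-cre 2 lay within the control range and the other GSDMD-NT Alb-cre livers above it (log2 fold change 0.78 ± 0.24 SE, adjusted p = 0.0398). Its partner gene Rxra measured 591, 692, 523, 589 and 679 CPM across GSDMD-NT Alb-cre livers 1 to 5, against 512, 420, 391 and 407 CPM in controls 1 to 4. Its groups did not overlap (log2 fold change 0.51 ± 0.14 SE, adjusted p = 0.0275). The Ppara call was lost without GSDMD-NT Alb-cre 1, 3, 4 or 5 or control 2 or 4 (adjusted p = 0.0517 to 0.118) and that of Rxra without GSDMD-NT Alb-cre 1 or 5 or control 2, 3 or 4 (adjusted p = 0.0573 to 0.0775). With the length-dependent offset both were lost too (adjusted p = 0.056 for Ppara and 0.0871 for Rxra). These are levels of the regulators' RNA, and their activity was not measured.

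**Figure D5:**
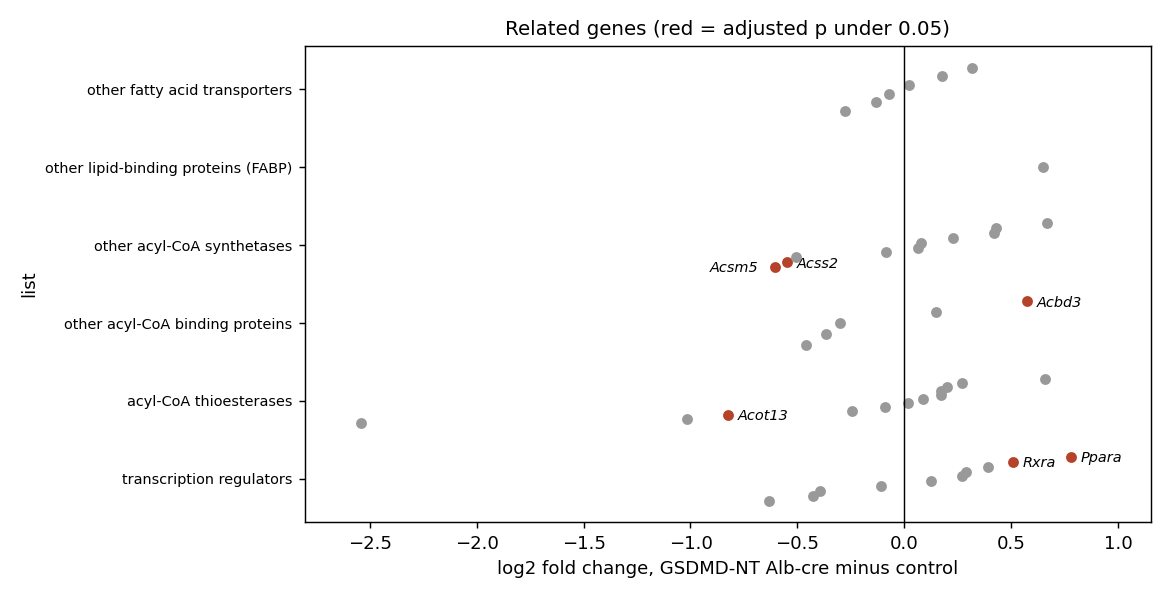
Log2 fold change (x axis, GSDMD-NT Alb-cre minus control) of the 44 tested related genes, 1 point each, by list, with red and a name for an adjusted p under 0.05; vertical offsets within a list follow rank. Red points lie on both sides of 0, with 3 higher (Acbd3, Ppara, Rxra) and 3 lower (Acss2, Acsm5, Acot13).

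For each gene that fell, the tested genes with the most similar profile were found among the 4149 whose log2 CPM averaged 5 or more, by the root-mean-square distance between mean-centred log2 CPM over the 9 livers. Nearest to Fabp1 were Klkb1 (distance 0.205), Macrod1 (0.209) and Ttr (0.211), where Fabp1 itself varied by 0.679 around its mean on that scale. Ttr, the gene of the plasma carrier transthyretin, was lowest in GSDMD-NT Alb-cre 2 (2122 CPM) and highest of its group in GSDMD-NT Alb-cre 3 (3824 CPM), against 5400 to 7000 CPM in controls. Fabp2 was nearest to Higd2a (0.0961), C8g (0.100) and Atp5g3 (0.111), and its own variation was 0.320. Acsl5 was nearest to Vdac2 (0.0721), Msra (0.0741) and Rdh7 (0.0756), and its own variation was 0.277. These distances describe the 9 livers and were not tested.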

How the data were processed

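RNA of 9 whole livers was read by strand-specific sequencing after ribosomal RNA depletion, per the labels' protocols, with groups taken from the sample titles. Per the submitters' processing notes, the tools were fastp 0.23.2 and HISAT2 2.1.0 and the build GRCm39. Details of the counting (tool, strand setting, annotation) were not given in the sources used here. Whole-number counts per gene, with no normalization, were deposited by the authors for 18954 genes, totalling 13361093 to 16823506 per liver, and 33 rows shared a symbol with another (none of the 10 genes).

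The 14004 genes passing filterByExpr in edgeR 4.0.16 (R 4.3.3) were scaled by TMM (factors 0.894 to 1.10) and tested by group with glmQLFTest. All 14004 p-values were adjusted together (Benjamini-Hochberg), and 0.05 was the threshold for a call. SE came from the fold change and the F statistic. Transcript lengths (GENCODE M21, on GRCm38, used for lengths only) were found for 13836 tested genes. Alternatives included other scalings and filters, DESeq2 1.42.0, limma-voom (limma 3.58.1), replicate blocks, a length offset and each liver left out. Counts of livers within a group differed beyond sampling noise (chi-square per gene 15.0 or more). The genes, lists and settings were chosen with earlier results of these data known. All 10 genes were described; from each related list the called genes, or else that with the smallest adjusted p, were named, with the 3 nearest profiles of each called gene. Figures used matplotlib 3.10.9.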

Additional observations from a re-analysis of the deposited data

How the results depend on the processing

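None of the 10 genes rose under any of the 21 settings tried. The 3 that fell kept their direction in each, and all 3 calls also held with RLE or upper-quartile factors, DESeq2, limma-voom, no filter, a stricter filter (4 or more livers at 1 CPM or above) and without the mitochondrially encoded and 20 most abundant genes. With library totals alone 0 of the 10 were called lower (adjusted p = 0.0513 for Fabp1, 0.0658 for Fabp2 and 0.0575 for Acsl5). The number was 1 with the length offset and 0 without controls 2 and 4, where 29 of all genes were higher and 44 lower with 2 controls left. Leaving out 1 liver gave 0 to 3 lower (0 without GSDMD-NT Alb-cre 1 or control 2 or 4, 1 without GSDMD-NT Alb-cre 5) and 0 higher, beside 567 to 1339 higher and 625 to 1184 lower of all genes. Among related genes it gave 0 to 4 higher and 1 to 5 lower. Related genes higher numbered 5 with DESeq2, 1 with the length offset and 0 without controls 2 and 4, where 0 were lower. The causes were not tested, and the fits that left livers out also had fewer livers.

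Acsl1, whose difference was near 0, turned negative with limma-voom (-0.18), the title block (-0.35), the description block (-0.039), the length offset (-0.068) and without controls 2 and 4 (-0.15), and ran from -0.25 to 0.27 with 1 liver left out. Slc27a2 turned positive with the description block (0.071) and without controls 2 and 4 (0.017), and ran from -0.12 to 0.073 with 1 liver left out. Of 210 repeats over the 10 genes, 169 kept direction and stayed called or not called, 29 lost the call and 12 turned sign. All 29 losses were of Fabp1, Fabp2 and Acsl5, the only genes with a call to lose. Fabp1 lost its call in 4 of 9 fits without 1 liver and in 5 of the 12 other settings. For Fabp2 these numbers were 6 and 5, and for Acsl5 5 and 4.

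The labels do not say that equal replicate numbers mark a shared animal or day. Deviations of same-numbered livers correlated at -0.01 to 0.13 by title number, where 3 of 8 livers correlated best with their own number, and at -0.11 to 0.05 by description number (1 of 6 livers). With a replicate block on the title number, 920 genes were higher and 817 lower, and 0 of the 10 genes were lower. With a replicate block on the description number, 270 were higher and 229 lower, 0 of the 10 genes were lower, and 0 related genes were higher and 1 lower. That 1 was not among the related genes called without a block. Those all lost their calls with this block (adjusted p = 0.0836 to 0.175). These blocks leave out livers whose number occurs in 1 group only. Depth limits Fabp4 most, at 49 to 140 counts in GSDMD-NT Alb-cre livers and 35 to 76 in controls, while the other 9 genes had at least 312 counts in every GSDMD-NT Alb-cre liver and at least 299 in every control.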

Other observations

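Other carriers of the pathway that liver makes in quantity did not pass the test. Scp2, which encodes sterol carrier protein 2, a lipid and acyl-CoA binding protein of peroxisomes, measured 3690, 2763, 4136, 3543 and 4098 CPM in livers 1 to 5 with Alb-cre and 3832, 3091, 3813 and 2440 CPM in controls 1 to 4 (log2 fold change 0.15 ± 0.19 SE, 95% interval -0.27 to 0.56, adjusted p = 0.614). Slc27a5, which encodes the liver transporter and bile acid ligase FATP5, measured 941 ± 133 CPM in GSDMD-NT Alb-cre livers (SD, n = 5) and 988 ± 138 CPM in controls (SD, n = 4), with an adjusted p = 0.777 from edgeR and a 95% interval of -0.40 to 0.26 for the log2 fold change. Both were chosen after their values were seen.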
